A study of Mus musculus with 6 samples.

Results

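Genes for ribosomal proteins, translation factors and hosts of small nucleolar RNAs (snoRNAs) were examined in primary mouse Sertoli cells with and without UXT. They were taken by symbol: names beginning with Rpl, Rps, Mrpl, Mrps, Eif, Eef or Snhg and a digit, the Rplp genes, Gas5 and Zfas1, without the Rps6k kinases and Eif2ak2. This gave 41 of the 3257 genes analysed. There were 13 cytosolic ribosomal protein genes, 9 mitochondrial ribosomal protein genes, 6 initiation factor genes, 1 gene named as an elongation factor, 11 non-coding snoRNA host genes and Rps19bp1, which encodes a binding partner of a ribosomal protein. RNA was sequenced from Sertoli cells of C57BL/6 mice, enriched by differential plating for 24 h, in 3 libraries of wild-type cells that received an empty plasmid and 3 libraries of UXT knockout cells that received Cre through a viral construct. Cells of both groups were infected over 2 periods of 24 h. Only the knockout cells received Cre, so loss of UXT and the viral construct cannot be told apart. The labels do not give the age of the mice, and do not tell whether replicates stand for different animals or cultures. The differences below are therefore set only against the spread between libraries, which may be technical.

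Ribosomes are built in the nucleolus from ribosomal RNA and ribosomal proteins, and snoRNAs guide the chemical modification and cleavage of the ribosomal RNA precursor. In mammals most snoRNAs are cut from introns of host genes. Some hosts encode proteins, often ribosomal proteins or nucleolar proteins, and others, such as Gas5 and the Snhg genes, give spliced transcripts with no known protein product. Many messages of the translation machinery, and several non-coding hosts, start with a terminal oligopyrimidine (TOP) tract, a C followed by pyrimidines, through which their translation follows nutrient and TOR signals. UXT is a subunit of a prefoldin-like complex that associates with the ATPases encoded by Ruvbl1 and Ruvbl2, which also act in the assembly of snoRNA-protein particles.

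The deposited table held only genes that the authors had selected on these same libraries, at a fold of at least 1.5 and a p-value cut-off. The direction and size of every difference below is therefore a description and not a test. No depth was known. Uxt was not among the 3257 selected genes analysed, so no change of its RNA could be shown and the labels were not checked against the targeted gene. Library medians over the table ran from 9.15 to 9.18 (log2) for wild-type cells and from 8.82 to 8.91 for knockout cells. The values per library were deposited as normalized log2 values, and the transformation behind them is not given in the sources used here. Among the 41 genes the difference between group means was between 0.25 and 0.82 of the log2 fold in the authors' deposited table, with a median of 0.61. Over the whole table the median was 0.58 and the range 0.08 to 1.54. The values are called moderated below only because their differences were mostly smaller than the authors' fold. Fold sizes are therefore given from the authors' deposited table, and values per library show the spread.

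Of the 260 non-pseudogene RefSeq symbols that the same naming rule found, 41 (15.8%) were in the table. The share was 11 of 20 for the non-coding hosts (55.0%) and 1 of 1 for the single symbol of the Rps19bp1 kind, against 13 of 90 cytosolic ribosomal (14.4%), 9 of 78 mitochondrial ribosomal (11.5%), 6 of 56 initiation factor (10.7%) and 1 of 15 elongation factor symbols (6.67%). The share of all RefSeq genes that reached the table was not computed, so these shares lack a background and nothing is read from them. The same holds for the numbers of listed pathway and marker genes found in the table, given further below. The symbols without a row were not analysed here, so nothing is said of their change.

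The sequence around the annotated start was examined first, because a TOP tract lies there. Start sites came from RefSeq promoters (GRCm38.p6), which matched 31 of the 41 genes and 2361 of the table's genes. A C followed by at least 4 pyrimidines stood exactly at an annotated start in 3 of the 9 non-coding hosts with a promoter (Gas5, Snhg7 and Snhg8), in 0 of 9 cytosolic ribosomal protein genes, and in 2.96% of all table genes and 3.01% of all reference promoters. With the tract allowed to begin within 10 bases of the start, it was found in 6 of 9 cytosolic ribosomal genes (66.7%), 5 of 9 hosts (55.6%) and 2 of 7 mitochondrial ribosomal genes (28.6%), beside 38.1% of table genes and 34.4% of reference promoters. The windows below show the hosts and ribosomal genes whose matching C nearest the start lay from 3 bases before to 2 bases after it. They run 5′ to 3′ on the gene's strand, from 20 bases before the start to 20 bases from it. Capitals mark the tract from that C onward. Pyrimidines just before it, as in Rpl27a and Rpl31, are in small letters, so a run can begin earlier than marked.
Gas5 (chr1:161035146-161035185, plus strand): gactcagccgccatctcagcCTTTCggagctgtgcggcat
Snhg7 (chr2:26640225-26640264, minus strand): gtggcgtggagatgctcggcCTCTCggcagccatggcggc
Snhg8 (chr3:123508317-123508356, minus strand): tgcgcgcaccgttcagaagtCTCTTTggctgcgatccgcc
Snhg12 (chr4:132308658-132308697, plus strand): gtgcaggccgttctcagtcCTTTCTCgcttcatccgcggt
Rpl27a (chr7:109519175-109519214, plus strand): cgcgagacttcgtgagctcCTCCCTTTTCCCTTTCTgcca
Rpl13a (chr7:45128726-45128765, minus strand): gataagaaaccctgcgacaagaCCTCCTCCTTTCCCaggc
Rpl12 (chr2:32961692-32961731, plus strand): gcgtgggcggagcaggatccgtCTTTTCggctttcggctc
Rpl31 (chr1:39367831-39367870, plus strand): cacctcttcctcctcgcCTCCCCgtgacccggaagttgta
The Gas5 window belongs to the second of its 2 annotated starts. Annotated starts can lie several bases from the start used in these cells, which were not mapped here.

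Other short motifs were searched on both strands in the window from 250 bases before to 50 after the start, and no motif contained another. The word AAGATGGC was in 6 of the 31 promoters (19.4%), beside 3.77% of table genes and 3.19% of reference promoters. It was in 3 of 7 mitochondrial ribosomal genes (Mrpl35, Mrps7 and Mrps27), and in Rpl13a, Eef1e1 and Eif2s3y. In Mrpl35, Rpl13a and Eef1e1 the word lay further past the start and is not shown. The word contains ATG, and its position relative to the coding start was not examined. In Mrps27, Mrps7 and Eif2s3y it lay just past the start, as shown here with the motif in capitals.
Mrps27 (chr13:99344784-99344815, plus strand): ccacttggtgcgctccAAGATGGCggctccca
Mrps7 (chr11:115604142-115604169, plus strand): ggtcctgacagcggccAAGATGGCtgcc
Eif2s3y (chrY:1010598-1010624, plus strand): tccttctttcgtgagcAAGATGGCggg
Mrps27 and Mrps7 were higher in the knockout and Eif2s3y was lower, so the word was present at genes of both directions. CCGGAAG was in 6 of 31 promoters (19.4%; table genes 11.8%, reference 9.93%) and GGGCGG in 23 of 31 (74.2%; table genes 61.1%, reference 38.2%). CACGTG was in 2 of 31 (6.45%; table genes 10.3%, reference 8.09%), TGANGCAA in 2 of 31 (6.45%; table genes 3.64%, reference 4.22%) and the palindromic NRF1 motif in 1 of 31 (3.23%; table genes 1.06%, reference 1.07%). GAANNTTC was in 0 of 31, beside 7.37% of table genes and 9.04% of the reference. A match describes only the letters in this window.

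In the knockout, 40 of the 41 genes were higher and 1, Eif2s3y, was lower. The same numbers were called by limma (adjusted p under 0.05, with the authors' deposited table giving a fold of 1.5 or more), beside 99.6% of the table's genes called, 32.1% higher and 67.5% lower. In all 41 genes the 3 knockout values lay on one side of the 3 wild-type values, as they did in 97.5% of the table's genes (31.7% apart and higher). Because the table was selected on this contrast, nothing is read from these counts. The median limma difference was 0.42 over the 41 genes and -0.40 over the table, on the log2 scale of the moderated values. The fold in the authors' deposited table ranged from 1.505 (Eif4b and Mrpl38, the genes nearest the table's threshold of 1.5) to 5.88 (Snhg7), with a median of 1.69. The non-coding hosts stood apart in size from the other classes: 10 of 11 were at least 2-fold higher in the authors' deposited table, against 3 of 13 cytosolic ribosomal genes and 0 of the 9 mitochondrial ribosomal genes. The share was 9.33% over all table genes and 29.0% over the table's higher genes, so the cytosolic ribosomal genes (23.1%) lay below the latter. It was 27.2% over the table's higher coding genes, and was not computed for its non-coding genes as a set. When the libraries were quantile-normalized, the median difference of the table moved up by 0.33 and that of the 41 genes reached 0.72. The gap between both medians was 0.82 as deposited and 0.79 after quantile normalization.

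**Figure D1:**
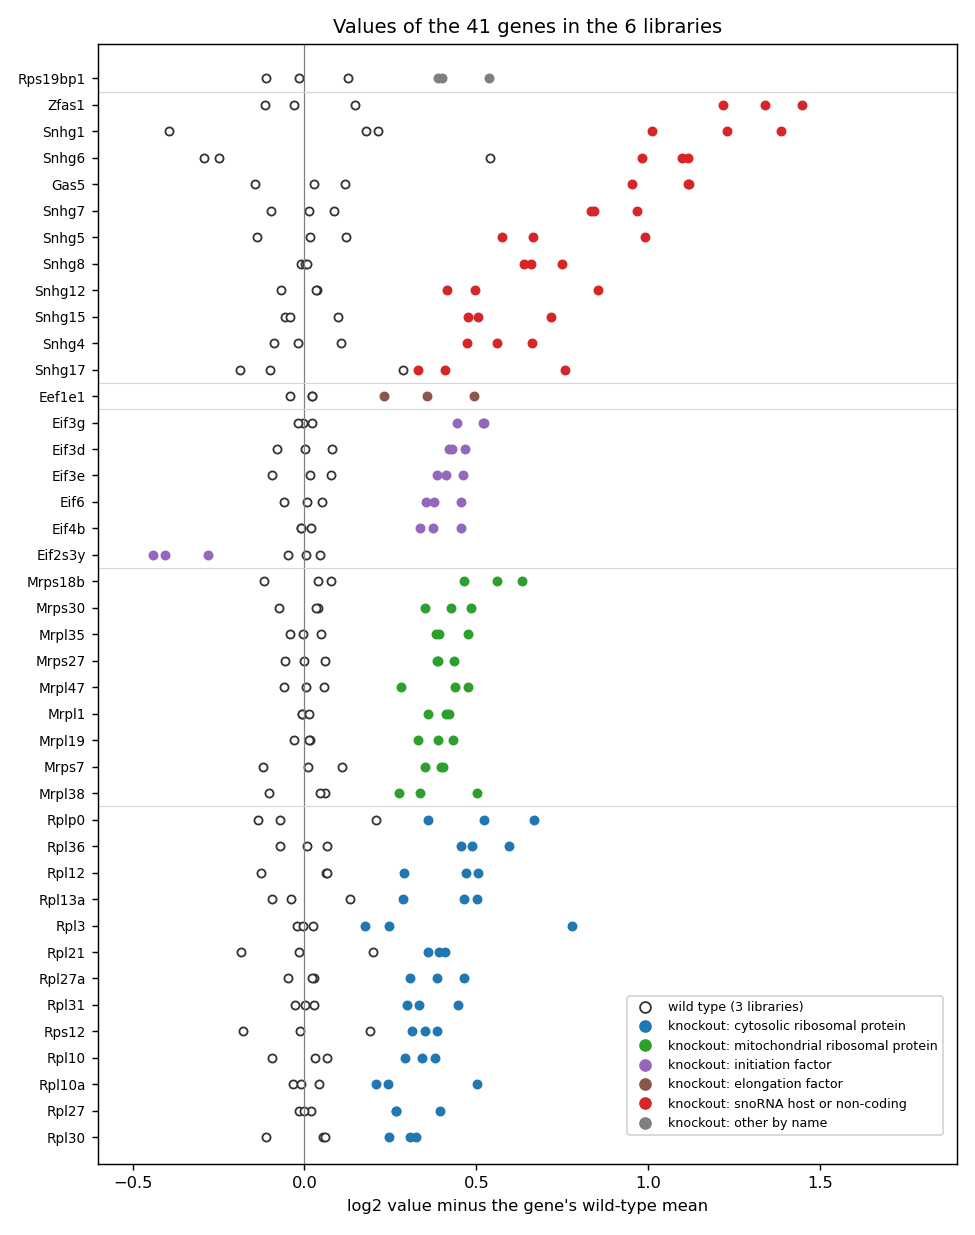
Log2 value of each of the 41 genes in each of the 6 libraries, minus the gene's own wild-type mean (horizontal axis); open points are the 3 wild-type libraries and filled points the 3 knockout libraries, coloured by class. Knockout points lie right of the wild-type points in 40 genes and left of them in Eif2s3y, and the snoRNA hosts have the largest class median, 0.74, although Snhg17 (0.50) lies left of Mrps18b (0.55).

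**Figure D2:**
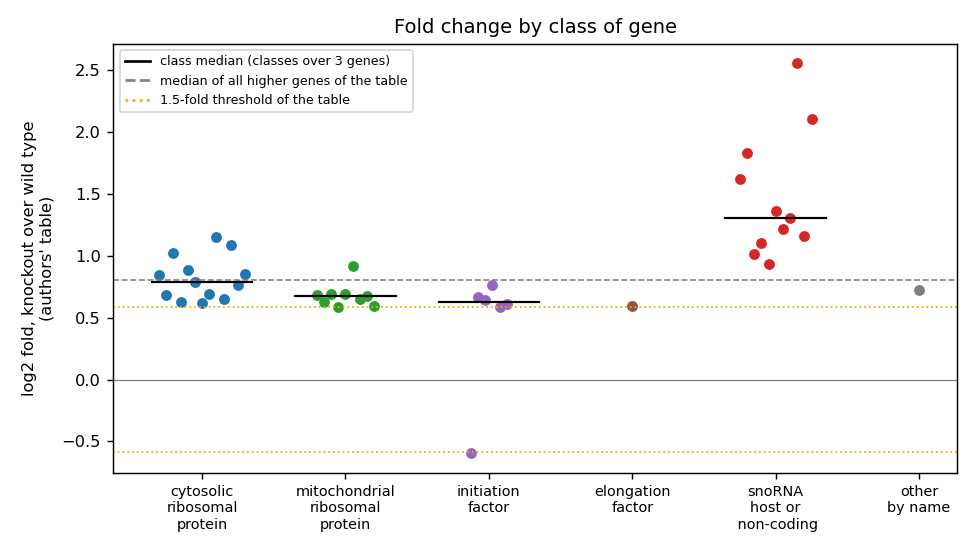
Log2 fold of knockout over wild type in the authors' deposited table (vertical axis), 1 point per gene, by class; black bars are class medians, the dashed line the median of all 1047 higher genes of the table, and dotted lines the 1.5-fold threshold. The host class has the highest median, 1.30, and the single point below 0 is Eif2s3y.

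Zfas1, a non-coding host, had the largest difference on the moderated scale. Its log2 values were 9.97, 9.88 and 10.14 in wild-type replicates 1 to 3 and 11.34, 11.22 and 11.45 in knockout replicates 1 to 3. The groups were separated by 1.07, several times the spread within either (range 0.26 and 0.23), and the limma difference was 1.34 ± 0.10 (SE). The fold in the authors' deposited table was 4.29. Zfas1 (chr2:167062934-167065862, GRCm38) contains 3 annotated snoRNA genes, among them Snord12, and overlaps Znfx1 on the other strand. Whether counting used strand is not given in the sources used here, so its value is uncertain where reads of both genes could be mixed. The same limit holds for Gas5, Snhg6, Eif3d, Eif6, Rpl3, Rpl10a, Rpl12, Rpl31, Mrpl19, Mrpl47, Mrps7, Mrps18b, Mrps27 and Mrps30, which also overlap an annotated gene on the other strand.

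Snhg7 had the largest fold in the authors' deposited table, 5.88, but the fifth difference among hosts on the moderated scale, 0.88 ± 0.09 (SE). Its values were the lowest of the hosts, at 6.05, 5.94 and 6.12 in wild-type cells and 6.88, 6.87 and 7.01 in knockout cells, with no overlap. Snhg1, the host of the U22 snoRNA and its neighbours, read 9.63, 9.06 and 9.67 in wild-type and 10.68, 10.47 and 10.84 in knockout cells. Wild-type replicate 2 of Snhg1 was low and widened the SE (difference 1.21 ± 0.17), and the fold in the authors' deposited table was 3.57. Snhg1 (chr19) contains 8 annotated snoRNA genes in a span of 2.97 kb.

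Gas5, whose spliced RNA is known to be short-lived in growing cells, was 3.07-fold higher in the authors' deposited table. Its log2 values were 11.80, 11.63 and 11.89 in wild-type and 12.89, 12.72 and 12.89 in knockout cells, a difference of 1.06 ± 0.09 (SE). Gas5 (chr1:161034422-161038539, GRCm38) holds 10 GENCODE records of type snoRNA, the most among the 41 genes, including Snord47, Snord78 and Snord80, and overlaps Zbtb37 on the other strand. Counts of snoRNA genes here are of such records: in Gas5 one is named Mir5117 and Snord80 has 2 overlapping records. The 4 genes described so far thus had gaps between groups of 0.75 to 1.07, larger than the range within any of their groups.

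The other hosts were higher by 1.91-fold to 2.56-fold in the authors' deposited table: Snhg4 by 2.56, Snhg6 by 2.47, Snhg5 by 2.32, Snhg8 by 2.24, Snhg15 by 2.15, Snhg12 by 2.02 and Snhg17 by 1.91. Of these, Snhg6, Snhg8 and Snhg17 are singled out after their values were seen. Snhg6 read 8.77, 9.60 and 8.81 in wild-type cells and 10.04, 10.16 and 10.17 in knockout cells, so that wild-type replicate 2 stood apart and the wild-type range was 0.83. Snhg8 was tight in both groups, at 9.16, 9.17 and 9.18 against 9.92, 9.83 and 9.81. Snhg17 had the narrowest gap of the 41 genes, 0.04, between 8.02 in wild-type replicate 3 and 8.07 in knockout replicate 2. The other 6 gaps in this set of hosts ran from 0.37 to 0.63.

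The hosts also moved together among libraries of the same group. Knockout replicate 3 was the highest knockout library in 10 of 11 hosts, and in 44.1% of the table's genes. Wild-type replicate 2 was the lowest wild-type library in 8 of 11 hosts and in 28.6% of the table's genes, and wild-type replicate 3 was the highest in 8 of 11 and in 28.0%. Relative to each gene's own wild-type mean, the median host value was -0.01, -0.10 and 0.11 in the wild-type libraries and 0.75, 0.66 and 0.97 in the knockout libraries. Without knockout replicate 3 the median limma difference of the hosts was 0.70, against 0.74 with it. Knockout replicate 3 was also highest in 5 of 6 initiation factor genes and in 4 of 9 mitochondrial ribosomal genes, but in 2 of 13 cytosolic ribosomal genes, where knockout replicate 1 was highest in 8.

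Cytosolic ribosomal proteins form the small and large subunits that translate nuclear messages, and 12 of the 13 genes that the symbol rule found were of the large subunit. Rpsa, a small-subunit gene whose symbol has no digit, was also in the table and is given below with the other translation genes. They were higher by 1.54-fold (Rpl27a and Rpl13a) to 2.22-fold (Rpl30) in the authors' deposited table, with a median of 1.72, beside 1.75 over all higher genes of the table. Rpl30 had the largest fold and the lowest values: 5.42, 5.42 and 5.25 in wild-type and 5.69, 5.61 and 5.67 in knockout cells, a limma difference of 0.29 ± 0.07 (SE). Rpl36 was 2.12-fold higher in the authors' deposited table. Its values, 7.59, 7.46 and 7.53 against 8.01, 7.98 and 8.12, left the widest gap of the class, 0.39. Rpl12, which lies at the base of the ribosomal stalk, was 2.03-fold higher in the authors' deposited table, with 6.75, 6.94 and 6.95 in wild-type and 7.17, 7.39 and 7.35 in knockout cells. Rpl21 was 1.84-fold higher in the authors' deposited table. It read 7.12, 6.91 and 6.74 in wild-type cells, spread over 0.38, and 7.33, 7.28 and 7.32 in knockout cells.

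The other folds in the authors' deposited table were 1.81 for Rps12, the one small-subunit gene among the 13, 1.80 for Rpl10, which joins the large subunit late in its assembly, 1.72 for Rpl27, 1.69 for Rplp0, which anchors the stalk, 1.61 for Rpl3, 1.60 for Rpl10a and 1.57 for Rpl31. Rpl3, singled out after its values were seen, owed much of the size of its difference to 1 knockout library. It read 9.75, 9.77 and 9.80 in wild-type cells, and 10.55 in knockout replicate 1 against 10.02 and 9.95 in the other two. Its limma difference was 0.40 ± 0.15 (SE), and 0.21 ± 0.09 (SE) without knockout replicate 1, when limma still called it. Limma no longer called it when any 1 of the 3 wild-type libraries was left out, with differences of 0.39 to 0.41. Over the class the median shift from each gene's wild-type mean ran from -0.02 to 0.02 among wild-type and from 0.34 to 0.39 among knockout libraries.

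Nearly all of the coding sequence of these ribosomal genes is repeated elsewhere in the transcriptome. The share of 31-base stretches of the coding sequence that also occur in a transcript of another, non-overlapping gene (GENCODE M21, either strand) ran from 67.0% to 100% over the 13 genes, and was 100% in 8 of them. The median over the table's coding genes was 0%, and 3.96% of those genes had over 50% shared. Each ribosomal gene shared stretches with 8 (Rpl10a and Rpl13a) to 111 (Rpl21) annotated pseudogenes. Rpl13a (67.0%) and Rplp0 (76.5%), the genes with the least shared sequence, had the highest mean log2 values per kb of coding sequence, 15.64 and 15.14. Rpl13a also overlaps Gm45713 on the same strand, which the share leaves out and which stranded counting would not resolve. The other 11, with shares of 90.2% or more, lay between 7.04 (Rpl30) and 11.63 (Rpl27a) per kb. Over all 13 genes Spearman's rho between the share and the level per kb was -0.38, as a description across genes that share the same libraries. How reads that fit several places were counted is not given in the sources used here, so the values of these genes are uncertain, and the part of shared sequence in their levels or differences was not tested. Rpl13a read 14.62, 14.85 and 14.68 in wild-type and 15.22, 15.18 and 15.01 in knockout cells, and Rplp0 read 15.01, 14.67 and 14.74 against 15.17, 15.47 and 15.33. Both were named after their values were seen. They were higher in every knockout library than in any wild-type library, as were 31.7% of the table's genes. Their folds are given above.

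**Figure D3:**
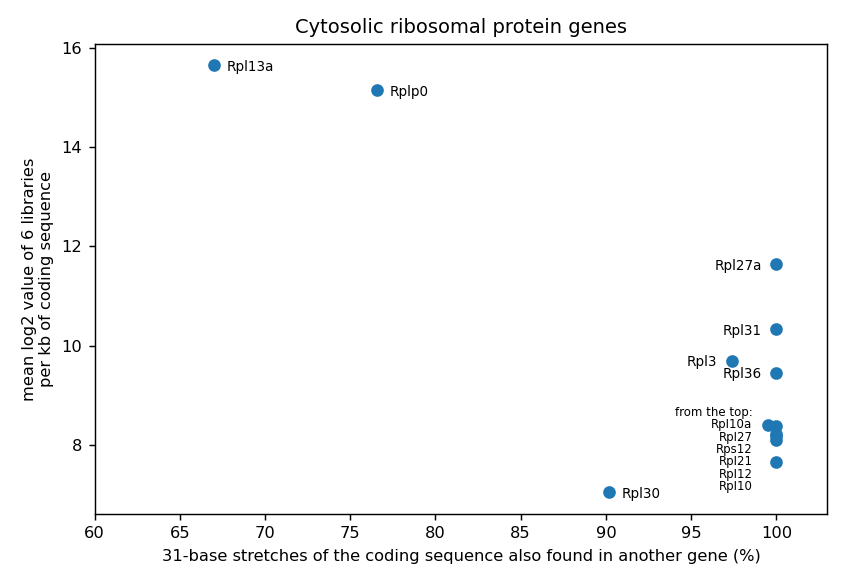
Mean log2 value of the 6 libraries per kb of coding sequence (vertical axis) against the percentage of 31-base stretches of the coding sequence also present in another gene (horizontal axis, not starting at 0), 1 point per cytosolic ribosomal protein gene. Rpl13a and Rplp0 stand alone at the upper left, and the other 11 genes have shares of 90.2% or more and values of 11.63 or less.

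Mitochondrial ribosomal proteins are encoded in the nucleus and translate the few messages of the mitochondrial genome. The 9 genes in the table were higher by 1.505-fold (Mrpl38) to 1.88-fold (Mrps18b) in the authors' deposited table, with a median of 1.59. Mrps18b read 9.55, 9.36 and 9.51 in wild-type and 10.03, 9.94 and 10.11 in knockout cells, a limma difference of 0.55 ± 0.09 (SE). Of its coding stretches 48.2% were shared with 2 pseudogenes, the largest share in this class, in which 7 of 9 genes shared none. Mrpl47 (1.62-fold in the authors' deposited table) had values of 9.04, 9.09 and 8.97 against 9.47, 9.31 and 9.51. Mrpl35 (1.62-fold in the authors' deposited table) had 9.61, 9.58 and 9.67 against 10.10, 10.01 and 10.003. Mrpl1 (1.60-fold in the authors' deposited table) was nearly constant in wild-type cells, at 9.24, 9.24 and 9.25, and read 9.66, 9.65 and 9.60 in knockout cells. All 3 are proteins of the large mitochondrial subunit, with gaps between groups of 0.22 to 0.35. Mrpl38, at the threshold of the table, read 10.41, 10.57 and 10.56 against 11.02, 10.79 and 10.85. The remaining genes were Mrps30 (1.59), Mrps27 (1.57), Mrpl19 (1.54) and Mrps7 (1.51), by fold in the authors' deposited table.

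Among initiation factors, 3 genes encode subunits of eIF3, the large complex that brings the small ribosomal subunit to messages. Eif3g was 1.70-fold higher in the authors' deposited table, with values of 12.08, 12.06 and 12.10 in wild-type and 12.60, 12.52 and 12.60 in knockout cells. Eif3d, a subunit that can bind the message cap, was 1.59-fold higher in the authors' deposited table, at 12.84, 13.00 and 12.93 against 13.35, 13.35 and 13.39. Eif3e was 1.56-fold higher in the authors' deposited table, at 12.19, 12.02 and 12.13 against 12.58, 12.50 and 12.52, and 46.4% of its coding stretches were shared with pseudogenes. The gaps between groups were 0.42, 0.34 and 0.31 in the order named.

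Eif6, a factor that keeps the ribosomal subunits apart and acts in assembly of the large subunit, was 1.52-fold higher in the authors' deposited table. It read 12.24, 12.35 and 12.31 in wild-type and 12.68, 12.66 and 12.76 in knockout cells. Eif4b, which stimulates the helicase that unwinds message leaders, read 14.05, 14.05 and 14.08 against 14.39, 14.43 and 14.51. Eef1e1, named as an elongation factor but known as a component of the complex of tRNA synthetases, was 1.51-fold higher in the authors' deposited table, at 10.08, 10.08 and 10.01 against 10.55, 10.29 and 10.42. Rps19bp1 was 1.65-fold higher in the authors' deposited table, at 9.53, 9.77 and 9.63 against 10.03, 10.04 and 10.18. The groups did not overlap in any of these 4 genes, nor did they in 97.5% of the table's genes.

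Eif2s3y, the Y-linked gene for the gamma subunit of eIF2, which brings the initiator tRNA to the ribosome, was the only gene lower in the knockout. Its values were 10.73, 10.83 and 10.79 in wild-type and 10.37, 10.34 and 10.50 in knockout cells, a limma difference of -0.38 ± 0.08 (SE) and a 1.51-fold fall in the authors' deposited table. With the library medians made equal its difference was -0.08 ± 0.08 (SE), its groups overlapped and limma did not call it. The sign stayed negative under both other scalings (-0.26 after quantile normalization), but the size and the call depend on the scaling between libraries. Equal medians raised every difference by 0.30, an amount set by a selected table with 67.9% of its genes lower. This scaling therefore cannot decide whether Eif2s3y fell.

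The hosts were then looked at by snoRNA content, a property that the naming rule did not use for protein-coding genes. Of the 3151 table genes matched to 1 GENCODE gene, 67 had at least 1 annotated snoRNA gene inside them on the same strand. Of these 67, 52 (77.6%) were higher in the knockout and 15 lower, against 951 of 3084 (30.8%) among genes without one. The 67 included 17 of the 39 matched genes described here, 9 hosts and 8 cytosolic ribosomal genes, all higher. They had 50 annotated snoRNA genes between them. Outside the 41 genes, 35 of 50 (70.0%) were higher, and among those with 2 or more snoRNA genes inside 19 of 20 (95.0%) were higher. The exception was the channel gene Trpm2, with 2 in a span of 62.8 kb. With exactly 1 snoRNA gene inside, 16 of 30 (53.3%) were higher. In the set of 50 the lower genes were long, with a median span of 209 kb against 18.2 kb for the higher ones. Examples outside the 41 genes, chosen after their values were seen, were the non-coding genes 2410006H16Rik (3.25-fold), 1110038B12Rik (2.51-fold) and Epb41l4aos (2.38-fold), the chaperone gene Hspa8 (2.04-fold) and Taf1d (1.83-fold), all in the authors' deposited table. Some of these genes, such as Nop56, Nop58, Ncl and Gnl3, are also on the fixed lists below. The counts there are thus not independent of those here. Whether the snoRNAs themselves changed was not measured, and these counts describe a selected table and carry no test.

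**Figure D4:**
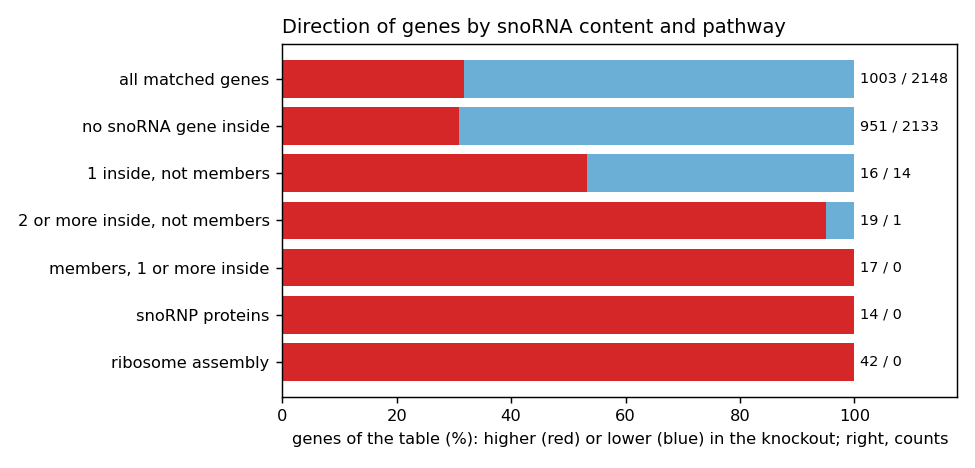
Percentage of genes of the table higher (red) and lower (blue) in the knockout, with the counts at the right, by number of annotated snoRNA genes inside (members are the 41 genes) and for the fixed lists of snoRNP proteins and ribosome assembly. All matched genes are 31.8% higher, genes outside the 41 with 2 or more snoRNA genes are 95.0% higher, and both lists are higher throughout. Some genes, such as Nop56 and Ncl, are counted both by snoRNA content and in a list.

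The rest of the pathway was read from fixed lists, beside 32.1% of all table genes called higher and 67.5% called lower. Of 18 genes for proteins of snoRNA particles and their assembly, 14 were in the table and all 14 were called higher, with a median log2 fold of 0.73 in the authors' deposited table. The methyltransferase of box C/D particles, Fbl, was 2.02-fold higher, the box H/ACA protein Gar1 1.99-fold and the pseudouridine synthase Dkc1 1.88-fold in the authors' deposited table. Ruvbl1 (1.58-fold) and Ruvbl2 (1.505-fold in the authors' deposited table), named here after their values were seen, were among the 14. Of 80 genes for ribosome assembly, 42 were in the table and all 42 were called higher, with a median log2 fold of 0.80 in the authors' deposited table. Utp20 (2.55-fold), the histone and ribosome chaperone gene Grwd1 (2.36-fold) and Heatr1 (2.32-fold) were highest. Of 27 other translation factor genes, 4 were in the table, all higher: Denr (1.86-fold), Dohh (1.81-fold), Pabpc4 (1.71-fold) and Rpsa (1.54-fold) in the authors' deposited table. Of 33 genes for TOR, S6 kinase and MYC network proteins, the table held 6, of which 5 were called higher and 1 lower. Myc was 1.97-fold, the MYC antagonist Mnt 1.61-fold and Rragd 1.56-fold higher in the authors' deposited table. Inhibitors of TOR signalling went both ways: Akt1s1 was 1.64-fold and Tsc1 1.53-fold higher, and Ddit4 was 1.60-fold lower in the authors' deposited table. Of 21 tRNA synthetase genes and 20 cell proliferation genes 0 were in the table, so no value of theirs was analysed here.

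Markers of cell types moved with the same contrast, in a table with 67.5% of its genes called lower. Of 20 Sertoli markers, 16 were in the table, 15 called lower and 1 higher. Their summed level, the log2 of the sum of linear values, ranged from 17.16 to 17.59 in wild-type and from 15.96 to 16.36 in knockout libraries. All 19 of 20 macrophage markers in the table were lower (summed level 15.08 to 15.43 against 13.61 to 13.86), as were all 18 of 20 endothelial markers (14.03 to 14.13 against 13.19 to 13.39). Such sums follow the most abundant genes, among endothelial markers Eng (1.85-fold lower) and Cdh5 (1.73-fold lower in the authors' deposited table). By median log2 fold in that table, endothelial markers fell most (-3.81), ahead of macrophage (-2.55) and Sertoli markers (-1.82). All 8 of 12 myoid markers (19.00 to 19.32 against 18.52 to 18.72) and all 7 of 12 fibroblast markers (20.47 to 20.62 against 19.40 to 20.14) in the table were also lower. All 4 of 13 Leydig markers in the table were higher (15.38 to 15.54 against 15.96 to 16.32). Of 19 germ cell markers, 3 were in the table, 1 higher and 2 lower. Their summed level (11.61 to 12.08 against 12.14 to 12.39) was almost wholly that of Uchl1, while Kit and Sycp3 were lower. Of 8 red cell markers 1 was in the table, Alas2, which was lower (8.39 to 8.71 against 6.57 to 6.85). No marker in the table was at 0 in any library, and the lowest single value was 3.66. How the moderated scale treats a gene without reads is not known, so this does not show that every marker was detected. In such bulk samples fewer cells of a type and less RNA per cell cannot be told apart, and the part of the changed makeup in the differences of the 41 genes was not tested.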

How the data were processed

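RNA-seq libraries of 3 wild-type and 3 UXT knockout cells were made with a stranded messenger RNA kit from 250 ng of RNA and 12 PCR cycles, per the labels. FastQC, STAR, DESeq2 and the build mm10 are named per the submitters' processing notes. The sources used here do not give the read counter, annotation or use of strand. The authors deposited 1 table of 3261 selected rows with log2 values per library, a log2 fold change, a signed fold score, and p-values with adjusted p-values. Symbols on 2 rows (4 rows) were left out, which left 3257 genes.

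Groups came from sample titles. The log2 values of all 6 libraries were fitted with limma 3.58.1 (R 4.3.3) with a mean-variance trend and no covariate, with Benjamini-Hochberg adjustment over all 3257 genes. The fit was tested on simulated data. Positions, snoRNA genes and transcripts came from GENCODE M21, start sites from RefSeq, both on GRCm38, the genome of mm10. Coding sequence was that of 1 principal transcript per gene (39 of 41 genes matched; Snhg4 and Snhg7 were not).

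The genes and lists were chosen with earlier results of these data known. The shared-sequence, snoRNA-content and library-order comparisons were added after the values were seen. Named with all values were the 4 genes of largest fold per class (all in classes of 6 or fewer), genes against their class's direction, genes not called, and the 2 nearest the threshold. For the pathway lists at least the 3 largest folds were named. Marker genes were not named by that rule, and Eng and Cdh5 were named for their high level. No depth was known, so no counting interval was computed.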

Additional observations from a re-analysis of the deposited data

How the results depend on the processing

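The count of genes called higher was 40 as deposited, 36 at an adjusted p under 0.01, 38 of 39 with only the 2443 genes of higher mean kept, and 39 to 40 without any 1 replicate. The gene called lower was lost, leaving 0, when library medians were made equal, a scaling set by the mostly lower genes of the selected table. The median difference of the 41 genes, 0.42, was 0.72 after quantile normalization and 0.71 with equal library medians, which moved the table's median up by 0.33 and 0.30. Without any 1 replicate it ranged from 0.40 to 0.44. No difference of a single gene reversed in 449 values over these alternatives, and 4 were no longer called by limma: Eif2s3y with equal medians and Rpl3 without each wild-type replicate. The replicate block left 40 genes higher and 1 lower with a median difference of 0.42. Over all table genes the replicate numbers showed no clear pairing. Deviations of same-numbered libraries correlated over genes at 0.177, -0.0731 and -0.00388, and not every library correlated best with its own number. Among the non-coding hosts, however, replicate 2 had the lowest and replicate 3 the highest median value in both groups. The block raised the SE of most of the 41 genes, such as Rpl10 (0.09 to 0.10) and the host Snhg8 (0.08 to 0.09). It lowered the SE of others, such as Snhg1 (0.17 to 0.10). Whether the samples are paired was therefore not settled. No pseudocount was varied, since the values were deposited as log2. The unknown depth limits what can be said of genes with low values such as Rpl30 and Snhg7.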
